A study of Mus musculus with 22 samples.

Results

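The genes described here form the circulating insulin-like growth factor system of mouse liver: Igf1, Igfals and the 7 binding protein genes Igfbp1 to Igfbp7. They were taken by RefSeq accession or gene name from the array annotation, which gave 9 genes with 11 probes among 33767 gene names, and that rule uses no measured value. Relative mRNA was measured on 22 two-colour Agilent arrays, each hybridised with RNA from 2 groups of livers labelled with opposite dyes, and each of 11 pairings was run on 2 arrays with the dyes exchanged. All livers came from ICR mice aged 8 weeks. The sham groups were males and females that had sham surgery and vehicle injection, per the design text, while the array labels call them intact. The Hypox groups were males and females whose pituitary was removed in adulthood. The other 6 groups were Hypox males and females given growth hormone (GH): a single injection with death 30 min later (GH30), a single injection with death 90 min later (GH90), or 2 injections 4 h apart with death 30 min after the last (2GH). The GH dose is not given in the sources used here. Loss of the pituitary removes its other hormones too, and every GH-treated group shares that loss. Each labelled RNA was a pool of 2 to 5 mice, the labels do not say which pools recur between arrays, and the spread between arrays therefore stands for pools and hybridisation together. All values are log2 ratios of the first named group to the second unless a level is stated, so that 1 is a doubling and -1 a halving.

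GH acts on hepatocytes through its receptor, the kinase JAK2 and the transcription factor STAT5, and liver is the main source of circulating IGF1. The acid-labile subunit, encoded by Igfals and made almost wholly by hepatocytes, joins IGF1 and IGFBP3 in a large complex that keeps IGF1 in the blood. The binding proteins differ in control: Igfbp1 is a fast gene repressed by insulin and raised by fasting and stress, Igfbp2 is high when GH and insulin are low, and Igfbp5, Igfbp6 and Igfbp7 are made largely by mesenchymal, mesothelial and endothelial cells.

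The 250 bases before the annotated starts of Igf1, Igfals and Igfbp1 are shown because these genes carry the GH responses and the largest disagreements between arrays below. Sequences are from RefSeq, assembly GRCm38.p6, which matched all 9 genes, and capitals mark motif matches. The motifs searched on both strands were TTCNNNGAA (STAT5), CAAAACA (insulin response element), TGTTCT (glucocorticoid receptor) and the palindromic HNF1 motif, none of them overlapping another in the windows shown. The Igf1 window is chr10:87860861-87861110, the Igfals windows are chr17:24877594-24877843 and chr17:24877981-24878230, and the Igfbp1 window is chr11:7197537-7197786, all on the plus strand.
Igf1: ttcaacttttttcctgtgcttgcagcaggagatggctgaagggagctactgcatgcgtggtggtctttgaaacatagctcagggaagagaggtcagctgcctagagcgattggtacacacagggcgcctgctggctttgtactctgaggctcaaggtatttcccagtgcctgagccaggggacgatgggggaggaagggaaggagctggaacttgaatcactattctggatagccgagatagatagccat
Igfals, first start: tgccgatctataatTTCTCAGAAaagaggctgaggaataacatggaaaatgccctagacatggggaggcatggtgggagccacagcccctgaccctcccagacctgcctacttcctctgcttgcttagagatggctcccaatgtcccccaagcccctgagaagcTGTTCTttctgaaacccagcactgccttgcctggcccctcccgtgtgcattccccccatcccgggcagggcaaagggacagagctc
Igfals, second start: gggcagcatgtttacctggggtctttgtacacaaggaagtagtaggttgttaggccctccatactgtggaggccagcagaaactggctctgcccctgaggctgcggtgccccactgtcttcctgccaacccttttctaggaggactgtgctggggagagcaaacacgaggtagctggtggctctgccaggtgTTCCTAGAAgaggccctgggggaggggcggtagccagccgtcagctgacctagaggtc
Igfbp1: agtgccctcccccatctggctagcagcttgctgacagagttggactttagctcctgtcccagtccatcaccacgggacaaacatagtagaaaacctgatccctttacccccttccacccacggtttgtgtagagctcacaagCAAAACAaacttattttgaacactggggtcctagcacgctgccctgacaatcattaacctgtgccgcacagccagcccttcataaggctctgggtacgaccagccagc
Searched over 300 bases, including the 50 bases after the start, both Igfals windows held a STAT5 motif. It was TTCTCAGAA 236 bases before the first start and TTCCTAGAA 58 bases before the second, and the other Igfals window held none of the 4 motifs. Among all 32851 windows of this length, 8.3% held TTCNNNGAA. Igfbp1 had CAAAACA 108 bases before its start, a motif in 6.28% of all windows. TGTTCT, found in 19% of all windows, lay 86 bases before the first Igfals start and, on the minus strand, 206 bases before a start of Igfbp2. The HNF1 motif, in 0.00913% of windows, was in none of the members' windows. The single Igf1 window held none of the letters searched, which says nothing of sites outside it. On this assembly Igfbp1 and Igfbp3 are neighbouring coding genes on chromosome 11, and Igfbp2 and Igfbp5 are neighbours on chromosome 1.

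Every member was measurable on every array: the probe standing for each gene, the brightest one, was well above background in 44 of 44 channels and saturated in none. Median channel signals were 294 to 375.6 in green and 415.3 to 521.5 in red, over local backgrounds of 245 to 290.5 and 316 to 346. Igfbp3 was the dimmest member, with green signals of 274 to 345, and those of Igfbp6 were 278 to 435. The lower ends of both lie within the range of the green background medians. The hepatocyte genes Alb, Apoa1, Ttr, Serpina1d (found through its synonym Serpina1a) and Tat were well above background in all 44 channels. Their summed level lay between 439284 and 823989 units in every group. RNA of other tissues was unequal between pools. Skeletal muscle genes (Acta1, Ckm, Myh4, Mb, Tnnt3 and Mylpf) had summed levels of 8301 to 30403 units in male sham, 547 to 3331 in female sham and 604 to 54518 in female Hypox pools, although Ckm was above background in only 19 of 44 channels. The pancreatic genes Cpa1, Ctrb1, Pnlip and Cel were high in 1 male 2GH pool, with a median ratio of 3.78 on its array against 0.42 on the other. On replicate 2 of the female Hypox over sham arrays 57.1% of red spots were well above background, against 69.3% to 77.7% in the other channels, and it had the most outlier spots, 159. Values of these lists stand below beside results they move with.

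Removal of the pituitary lowered the ligand, its stabilising subunit and Igfbp4 and Igfbp7 in both sexes, and raised Igfbp2. Of the 9 members, 5 passed the test in males, where 37.3% of all 26207 genes tested did, and 6 passed in females, against 31.1% of all genes. A gene passed with a limma p-value, adjusted by the Benjamini-Hochberg method over all genes tested, under 0.05 and both arrays on the same side of 0. Downward calls took 4 of 9 members in males and 5 of 9 in females, against 18.6% and 16.5% of all genes, and the single upward call in each sex stood against 18.8% and 14.6%. The median member ratio was 0.006 in males, equal to that of all genes, and -0.644 in females, where that of all genes was -0.003. Each female array was left out in turn, including replicate 2 with its low share of red spots above background. The 2 values were -3.45 and -3.04 for Igf1, -2.49 and -2.48 for Igfals and 1.72 and 1.84 for Igfbp2. They were -0.5 and -0.3 for Igfbp3, -0.69 and -0.68 for Igfbp4 and -1.05 and -0.83 for Igfbp7. Of 4 lymphocyte genes (Cd79a, Cd79b, Ms4a1 and Cd3e) 3 were called higher in each sex, with medians of 1.005 and 0.675. Their summed level was 590 to 786 units in sham and 1078 to 1965 in all other groups. Over the 22 arrays their median had r = -0.78 with Igf1, -0.75 with Igfals, 0.77 with Igfbp2, -0.61 with Igfbp4 and -0.66 with Igfbp7. Spearman values were weaker, at -0.4, -0.46, 0.41, -0.3 and -0.26 in the same order. Between the 2 arrays of a pairing the differences had r = -0.07, -0.61, -0.26, -0.44 and 0.72, so the sign turned for Igfbp2 and Igfbp7. Of 4 cholangiocyte genes 1 was called higher and 1 lower in males and 1 higher in females, with medians of 0.29 and 0.425, and their median had r = -0.72 with Igfbp4. The part of either list in these results was not tested. In these whole-tissue samples fewer cells of a type and less RNA per cell cannot be told apart.

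Igf1 (probe A_51_P147942), the hormone itself, was read at -2.67 and -2.25 in the male Hypox over sham arrays and at -3.45 and -3.04 in the female ones. Both arrays of each sex were far below 0 and the ranges of the sexes did not overlap. The fitted fall was -2.46 ± 0.16 (SE, 2 arrays) in males, adjusted p = 2.8e-07, and -3.25 ± 0.16 in females, adjusted p = 6.1e-08, which left 18.2% and 10.5% of the sham level. The probe is printed as 10 spots on each array, whose SD within an array was 0.02 to 0.068, so most of the difference between arrays was not spot noise. On the male arrays 5 of the 6 muscle genes were called lower with medians of -2.66 and -3.15, and on the female arrays none was called, with medians of 0.04 and 0.01. The part of muscle RNA in the male values was not tested.

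Igfals, the acid-labile subunit gene, was read at -2.09 and -1.70 in males and at -2.55 and -2.42 in females. All 4 arrays were below -1.5 on the log2 scale, and the female pair lay below the male pair. The fall was -1.90 ± 0.10 in males, adjusted p = 4.7e-08, and -2.49 ± 0.10 in females, adjusted p = 1.6e-08, leaving 26.9% and 17.8% of sham. It was thus somewhat smaller than that of Igf1 in both sexes.

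**Figure D1:**
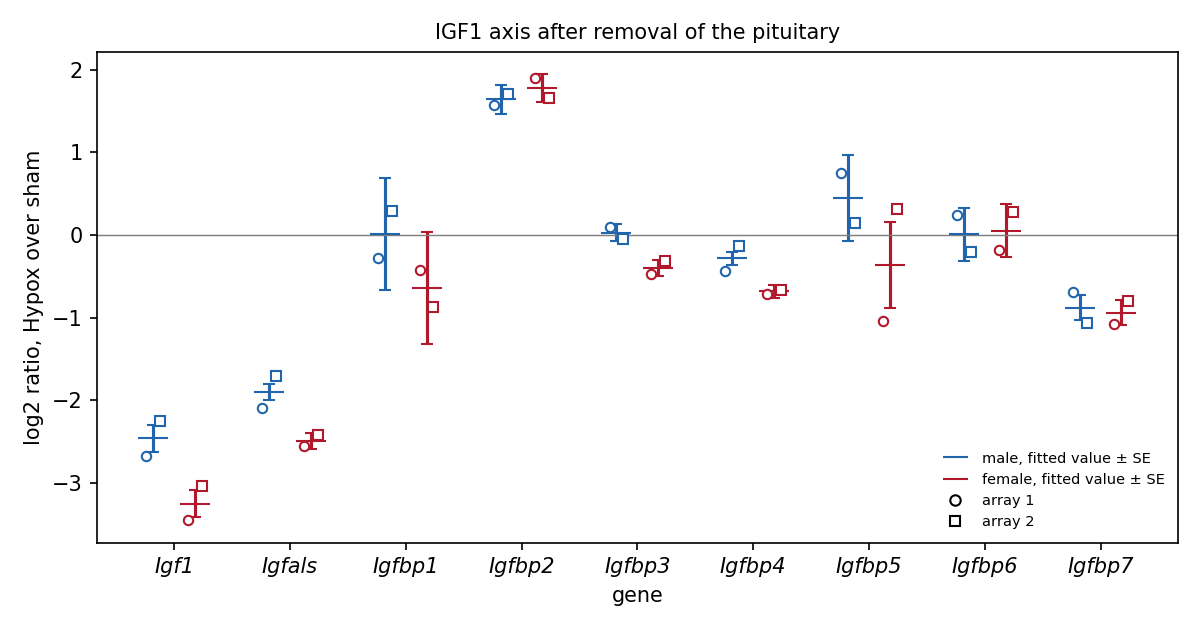
Log2 ratios of Hypox over sham for the 9 members in males and females, with a point for each array and the fitted value ± SE. Igf1 and Igfals lie lowest in both sexes, from -1.90 to -3.25, and Igfbp2 is the only member clearly above 0, at 1.64 and 1.78.

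Igfbp2 (probe A_51_P423308), the binding protein that rises in GH deficiency, went the opposite way. Its ratios were 1.57 and 1.71 in males and 1.90 and 1.66 in females, so the sexes overlapped. The rise was 1.64 ± 0.17 in males and 1.78 ± 0.17 in females, each with adjusted p = 1.2e-05, giving 312% and 343% of sham. The sex difference of -0.14 ± 0.24 has a 95% interval of -0.66 to 0.38.

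Igfbp7, which binds IGFs weakly and is abundant in liver endothelium, had ratios of -0.69 and -1.06 in males and -1.08 and -0.80 in females. Its fall of -0.88 ± 0.15, adjusted p = 0.00067, and of -0.94 ± 0.15, adjusted p = 0.00062, left 54.5% and 52.1% of sham. Of 8 sinusoidal endothelial genes, 4 were called higher and 1 lower in males, and 1 higher and 2 lower in females, with list medians of 0.165 and 0.09; these counts stand against the shares of all genes above. Between the arrays of a pairing, differences in Igfbp7 went with those of 9 stellate and fibroblast genes (r = 0.88), mesothelial genes (0.82) and lymphocyte genes (0.72). They also went with those of the sinusoidal endothelial genes (0.61) and cholangiocyte genes (0.55). The part of these lists was not tested.

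Igfbp4, an inhibitory binding protein cleaved by PAPP-A, was read at -0.43 and -0.13 in males and -0.71 and -0.66 in females. The fall of -0.68 ± 0.08 in females had adjusted p = 4e-05. That of -0.28 ± 0.08 in males had adjusted p = 0.012 and rested on replicate 1, without which it was -0.15 with adjusted p = 0.36. A further Igfbp4 probe gave -0.46 and -0.20 in males and -0.52 and -0.70 in females, again called in both sexes at -0.33, adjusted p = 0.024, and -0.61, adjusted p = 0.00082.

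Igfbp3, whose product carries most circulating IGF1, was called in females only, with ratios of -0.47 and -0.32 against 0.10 and -0.05 in males. The female fall was -0.40 ± 0.10 with adjusted p = 0.0085, and was not called without replicate 1, at -0.30 with adjusted p = 0.18. The sex difference of 0.43 ± 0.14 did not pass, adjusted p = 0.093, though it was called at 0.43 with adjusted p = 0.032 without either male GH30 over Hypox array. Igfbp1, Igfbp5 and Igfbp6 passed in neither sex. Igfbp1 was read at -0.28 and 0.29 in males and -0.42 and -0.87 in females, Igfbp5 at 0.75 and 0.14 and at -1.04 and 0.32, and Igfbp6 at 0.24 and -0.21 and at -0.18 and 0.28. Their arrays straddled 0 in 4 of these 6 cases.

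Between sexes, the first comparison was of sham males with sham females, where 1 of 9 members was called against 8.75% of all genes. Igfals was read at -0.50 and -0.36, lower in males on both arrays, and the fitted -0.43 ± 0.10 had adjusted p = 0.019. Without replicate 1 the value was -0.28 with adjusted p = 0.41. Igf1, at -0.23 and -0.54, was also lower in males on both arrays but did not pass, adjusted p = 0.19. Muscle genes had medians of 2.46 and 3.09 with 1 of 6 called higher, and Kupffer cell genes, markers of liver macrophages, had medians of -0.50 and -0.84 with 2 of 6 called lower. The part of both lists in these values was not tested. Of the other members, Igfbp2, Igfbp3, Igfbp4 and Igfbp7 were below 0 on both arrays and Igfbp5 and Igfbp6 above 0 on both, none of them called.

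The response to hypophysectomy itself was compared between the sexes as the male minus the female change. Of the 9 members 2 were called, against 6.7% of all genes. Igfals fell less in males by 0.59 ± 0.14, adjusted p = 0.03, and Igfbp4 fell less in males by 0.41 ± 0.11, adjusted p = 0.043. For Igf1 the difference was 0.79 ± 0.23, with a 95% interval of 0.28 to 1.29 and adjusted p = 0.063, which did not pass. It did pass, at 0.79 with adjusted p = 0.043, without either of the male over female Hypox arrays.
The Igfals difference was lost without either male Hypox array (0.73, adjusted p = 0.058, and 0.45, adjusted p = 0.2) or either female one (0.60, adjusted p = 0.12, and 0.59, adjusted p = 0.14). The Igfbp4 difference passed in only 2 of the 22 fits that each left out 1 array, with values of 0.28 to 0.53 and adjusted p of 0.011 to 0.28. Muscle RNA differed between the male arms only, as above, and its part in the sex differences was not tested.

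Hypox males and females were also set against each other directly. None of the 9 members was called by limma, against 1.63% of all genes, and 4 had an unadjusted p under 0.05 (Igf1, Igfals, Igfbp2 and Igfbp5). Igf1 was read at 0.25 and 0.80 and Igfals at 0.22 and 0.44, both higher in males on both arrays, with 0.52 ± 0.16 and 0.33 ± 0.10 and adjusted p = 0.13 for each. Igfbp2, at -0.84 and -0.32, was lower in males, -0.58 ± 0.17 with adjusted p = 0.11. The 4 comparisons that link the sham and Hypox groups close a loop, and around it limma called no member and 0% of all genes, with no member and 317 genes at an unadjusted p under 0.05. For Igfbp1 the closure was 0.02 ± 1.36, an SE that carries its residual SD over all pairings, 1.07. Its arrays lay farthest apart outside this loop, at -1.27 and 1.66 in male GH30 and -1.78 and 1.73 in male over female GH30. Within the loop they read -0.01 and -0.35 for the sham sexes and 0.21 and 0.7 for the Hypox sexes. For Hypox over sham they read -0.28 and 0.29 in males and -0.42 and -0.87 in females.

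After GH the first genes to respond in liver are direct STAT5 targets. At 30 min no member was called in either sex, against 2.5% of all genes in males and 0.0191% in females. Igf1 was read at -0.03 and -0.22 in males and 0.43 and 0.29 in females, and Igfals at -0.26 and 0.14 and at 0.23 and 0.36. Socs2, a direct target that feeds back on the GH receptor, was already up in the same livers, at 2.26 and 2.19 in males, adjusted p = 0.02, and 3.23 and 2.70 in females, adjusted p = 0.027. Before adjustment, female Igfals and Igf1 had p under 0.05 in limma, and no male member did; neither female gene passed the adjustment, with adjusted p = 0.49 for Igfals and 0.66 for Igf1.

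At 90 min Igfals had risen. In males its ratios were 0.67 and 0.95, for a rise of 0.81 ± 0.10 with adjusted p = 0.00083. It was the only one of the 9 members called there, against 4.98% of all genes. In females 2 of 9 were called, against 3.16% of all genes: Igfals, at 0.56 and 0.47 and 0.52 ± 0.10, adjusted p = 0.018, and Igf1, at 0.50 and 0.96 and 0.73 ± 0.16, adjusted p = 0.032. Neither female call held on a single array. Without replicate 1 Igf1 was 0.97 (adjusted p = 0.059) and Igfals 0.39 (adjusted p = 0.24), and without replicate 2 they were 0.50 (adjusted p = 0.59) and 0.64 (adjusted p = 0.13). Male Igf1, at 0.50 and 0.44, was up on both arrays, but 0.47 ± 0.16 did not pass, adjusted p = 0.13. The male Igfals call was kept without either array, but with this pairing fitted alone it missed the threshold, at 0.81 with adjusted p = 0.051. On the male array with an Igfals ratio of 0.67 the muscle median was 2.21, and on that with 0.95 it was 0.03; the part of muscle RNA was not tested.

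After the second injection Igf1 and Igfals were the 2 members called in each sex, against 19.3% of all genes in males and 8.43% in females. These livers were taken 30 min after the second injection and more than 4 h after the first. The number of injections and the time since the first therefore cannot be told apart. Both arrays of a sex had pools of the same sizes, and whether these were the same pools is not stated. Igfals was read at 1.64 and 1.71 in males and 1.78 and 2.06 in females, all 4 of them above 1. The rises were 1.68 ± 0.10, adjusted p = 4.7e-06, and 1.92 ± 0.10, adjusted p = 2e-06. Igf1 was read at 1.42 and 1.02 in males and 1.38 and 1.69 in females, for 1.22 ± 0.16, adjusted p = 0.00027, and 1.53 ± 0.16, adjusted p = 0.00038. On the male array with a muscle median of -0.06 Igf1 was 1.42 and Igfals 1.64, and on that with a muscle median of 3.29 they were 1.02 and 1.71. In females all 6 muscle genes were called lower after 2GH, with medians of -3.80 and -3.42 on the 2 arrays, and their part in the female values was not tested.

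**Figure D2:**
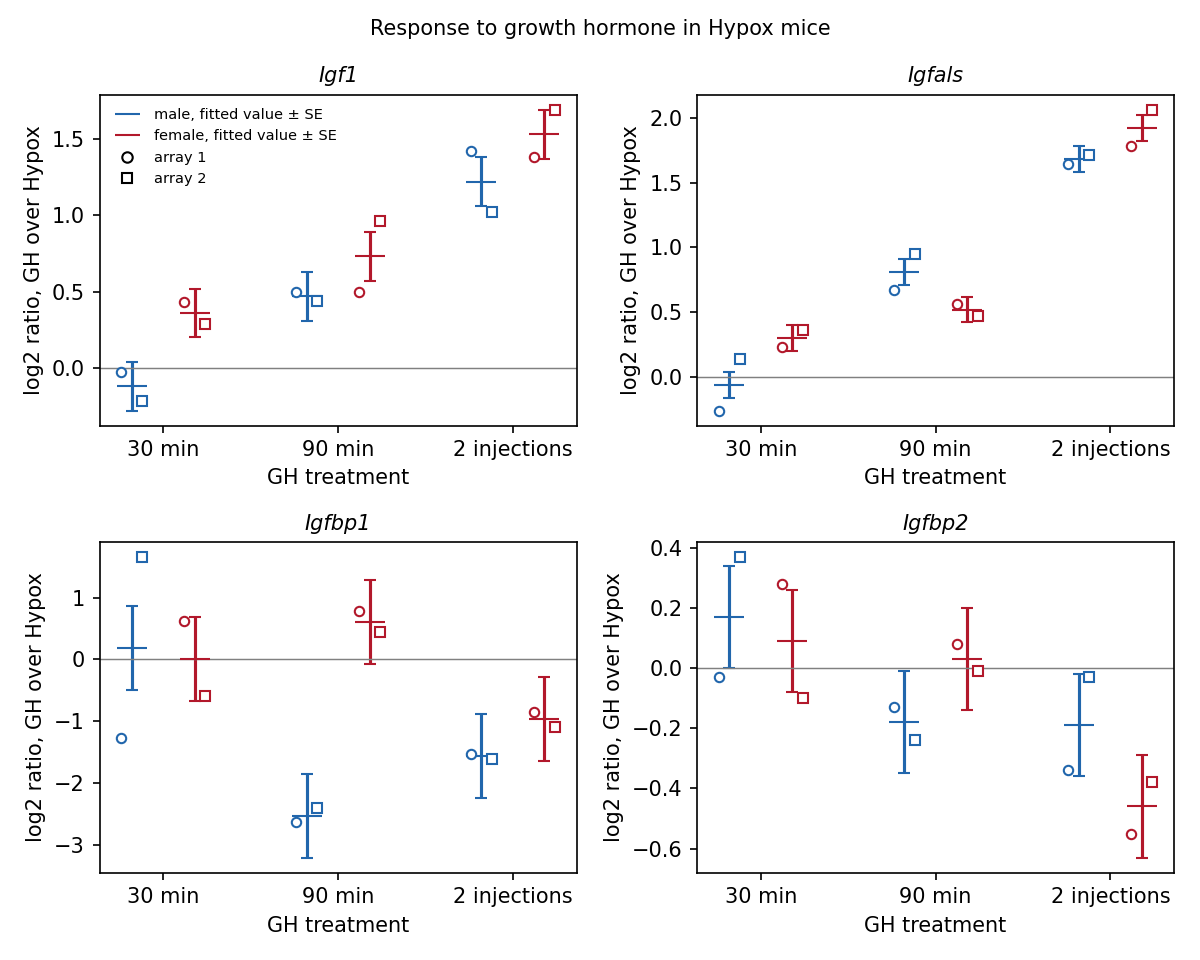
Log2 ratios of GH-treated over Hypox liver for Igf1, Igfals, Igfbp1 and Igfbp2 at 30 min, 90 min and after the second injection, by sex. Each array has a point, and the fitted value is drawn ± SE. Igfals reaches 1.68 in males and 1.92 in females and Igf1 1.22 and 1.53 after 2 injections, while Igfbp1 scatters most of the genes drawn.

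The 3 GH groups were then set against each other within each sex, as differences between their responses. The male 2GH arrays had Hypox pools of 5 mice and another scan day than male GH30 and GH90, whose Hypox pools were of 3. Female Hypox pools were of 3 mice for GH30 and of 2 for GH90 and 2GH. Differences of Hypox pool and, for male 2GH, of scan day cannot be told apart from those of GH treatment. GH90 minus GH30 was called for Igfals in males, at 0.87 ± 0.14 with adjusted p = 0.011, against 2.45% of all genes, and for no member in females, where 0.153% of genes passed. The male value was lost when any of 3 arrays was left out, with values over all 22 such fits of 0.73 to 1.02 and adjusted p of 0.0094 to 0.091.
The 2GH response exceeded that at 90 min for Igfals by 0.86 in males, adjusted p = 0.0045, and by 1.41 in females, adjusted p = 0.0021, against 7.57% and 2.04% of all genes. The male difference was lost in 1 of the 22 fits, without GH90 replicate 1, at 0.78 with adjusted p = 0.055. For Igf1 these differences were 0.75 and 0.80 and did not pass, adjusted p = 0.072 and 0.094, the former passing at 0.048 without either male over female Hypox array.
Against 30 min, 2GH was higher for both genes in both sexes, where 14.4% of all genes passed in males and 1.41% in females. Igfals differed by 1.74, adjusted p = 8.1e-05, and 1.63, adjusted p = 0.00057, and male Igf1 by 1.34, adjusted p = 0.0029. Female Igf1 differed by 1.17, adjusted p = 0.034, and lost the call without any 1 of the 4 female GH30 or 2GH arrays, at 1.02 to 1.32 with adjusted p up to 0.27.

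No sex difference in a GH response was called for a member by limma, and 4 had an unadjusted p under 0.05: Igfals and Igfbp5 at 30 min, Igfbp1 at 90 min and Igfbp5 after 2GH. The share of all genes called was 0.00382% at 30 min, 0.00763% at 90 min and 1.97% after 2GH. In the direct comparison of GH30 males with females no member was called, against 0.504% of genes. Igfbp2 came nearest, at -1.04 and -0.23 and -0.64 ± 0.17 with adjusted p = 0.14, and was called at -1.01 with adjusted p = 0.048 without replicate 2. For Igf1 after 2GH the responses were 1.22 and 1.53, and for Igfals 1.68 and 1.92, and the female minus male gap passed for neither gene.

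The level after 2 injections was also set against sham. Taken through the Hypox arrays, Igfals stood at 85.9% of sham in males and 67.6% in females, and Igf1 at 42.2% and 30.5%. The comparison with sham was added after the data had been seen, and 21.6% of all genes were called in males and 19.8% in females. Igf1 differed from sham by -1.25 ± 0.23 on the log2 scale in males, adjusted p = 0.0023, and by -1.71 ± 0.23 in females, adjusted p = 0.00047. For Igfals the values were -0.22 ± 0.14 in males, which did not pass (adjusted p = 0.32), and -0.56 ± 0.14 in females, adjusted p = 0.017. Female Igfals was called in 18 of 22 fits that leave out an array, and missed the threshold without either female Hypox over sham array or either female 2GH array, with adjusted p up to 0.12. Igfbp2 stood at 273% of sham in males and 249% in females, higher by 1.45, adjusted p = 0.0011, and 1.32, adjusted p = 0.0028. Igfbp7 stood at 58.1% and 48.7%, adjusted p = 0.021 and 0.006, and Igfbp4 at 80.7%, adjusted p = 0.058, and 63.3%, adjusted p = 0.0015. Male Igfbp7 was called in 19 of the 22, and missed it without male Hypox over sham replicate 2 (adjusted p = 0.18) or either male 2GH array (0.14 and 0.052). Male Igfbp4 was called in 3 of the 22. None of Igfbp2, Igfbp4 and Igfbp7 was called in any comparison of GH with Hypox with all arrays fitted, with Igfbp2 ratios between -0.55 and 0.37 over the 12 arrays. In females after 2GH Igfbp2 was read at -0.55 and -0.38, the lowest pair, and -0.46 ± 0.17 did not pass, adjusted p = 0.12. It was called with this pairing fitted alone in limma, adjusted p = 0.043, and with a replicate block, adjusted p = 0.039.

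Levels in each channel, scaled within and between arrays, were used to describe all 10 groups, and their order was taken from a fit that links every group through shared partners. For Igf1 the order, in log2 units above male Hypox, was female sham 2.80 ± 0.15 (SE), male sham 2.44 ± 0.13, male 2GH 1.22, female 2GH 1.06, male GH90 0.47, female GH90 0.26, male Hypox 0, female GH30 -0.09, male GH30 -0.15 and female Hypox -0.48 ± 0.12. Channel readings of neighbours in this order overlapped except male sham with male 2GH, female 2GH with male GH90, and male GH90 with female GH90; the first of these gaps was under the 2 decimals printed here, with both ends at 16.11. Igf1 readings ranged from 16.57 to 17.30 with a median of 16.79 in female sham and from 13.47 to 14.43 in female Hypox, so these groups were far apart. Igfals followed the same order, from 2.23 in female sham to -0.30 in female Hypox. Its neighbours separated at 4 places: female from male sham, male from female 2GH, female 2GH from male GH90 and male from female GH90.
Igfbp2 was ordered almost in reverse: female GH30, female GH90 and female Hypox stood at 0.72, 0.61 and 0.58, and female and male sham lay lowest at -1.24 and -1.60. Sham readings, 14.05 to 14.53, lay below all 36 readings of the other 8 groups, of which the lowest was 15.22. For Igfbp7 the fitted values of the sham groups were the highest, at 0.98 and 0.83 against -0.10 to 0.35. Its readings did overlap, since the lowest in male sham was 15.31 and the highest in male GH30 was 15.43. Igfbp3 spanned only -0.16 to 0.25 and Igfbp4 -0.12 to 0.53, each highest in female sham.

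**Figure D3:**
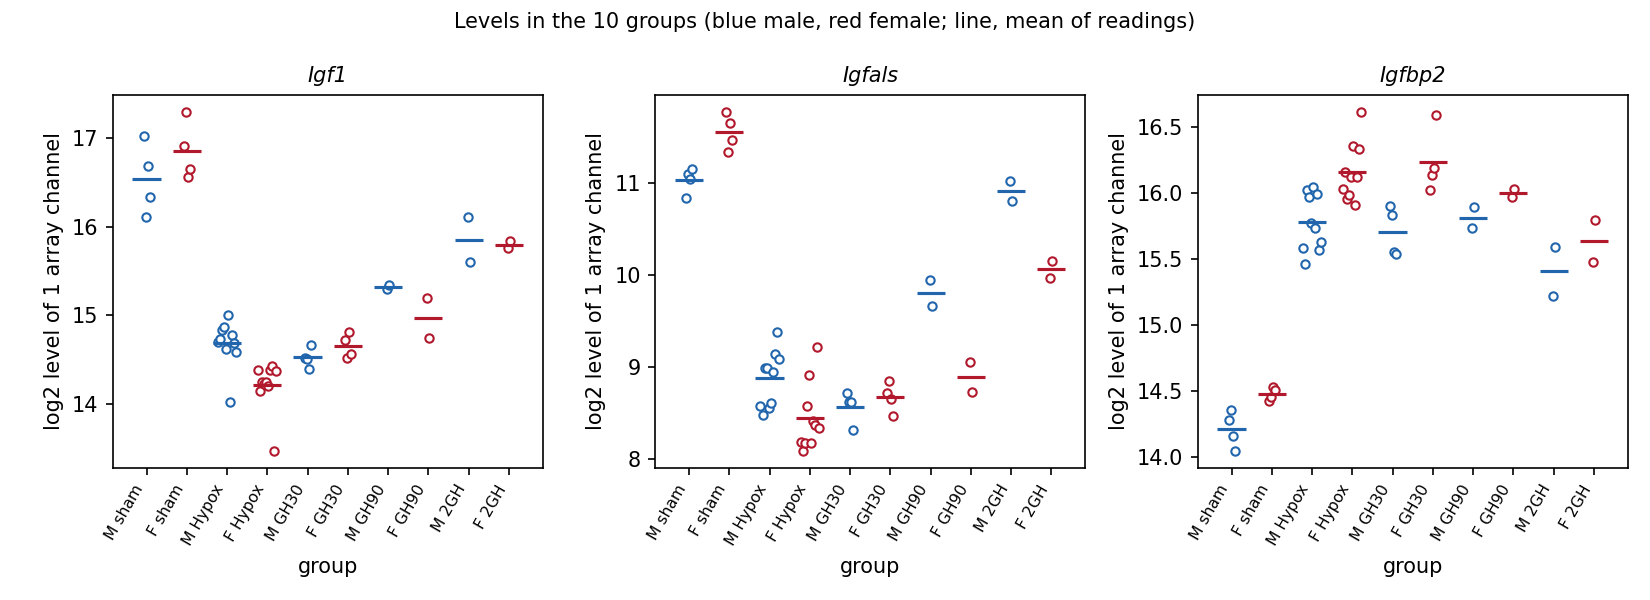
Log2 channel readings of Igf1, Igfals and Igfbp2 in the 10 groups, with a point per reading and a bar at the group mean. Igf1 falls from 16.86 in female sham to 14.21 in female Hypox, and the sham groups are lowest for Igfbp2, at 14.48 and 14.21.

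Over the 22 arrays Igf1 and Igfals ratios had r = 0.97 (Spearman 0.96), and r = 0.95 without the 2 farthest arrays. The arrays share Hypox pools and the same 11 pairings, so this describes the pairings' means. Between the 2 arrays of each pairing the differences in Igf1 and Igfals had r = 0.01. Igf1 also went with Igfbp4 (r = 0.86), Igfbp7 (r = 0.77) and, inversely, Igfbp2 (r = -0.85). Among 12060 genes well above background the 5 with a pattern most like Igf1 over the 22 arrays were Lifr (r = 0.978), Ugt2a3 (0.977), Igfals (0.969), Ugt2a1 (0.967) and Ahctf1 (0.966). Lifr, the leukaemia inhibitory factor receptor gene, had ratios of -2.84 and -3.12 after hypophysectomy and 1.01 and 0.77 after 2GH, in males and females. For Igfbp1 the likest genes were Adh7 (0.834), Bbc3 (0.83), Llgl2 (0.815), Pip5k1c (0.808) and Rnf5 (0.801).

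Igfbp1 (probe A_51_P447545), the insulin-repressed binding protein, was bright and was the least repeatable member. Its residual SD of 1.07 was at the 99.5th percentile of all genes, against a median of 0.13. At 30 min in males the arrays read -1.27 and 1.66, in opposite directions, and in females 0.62 and -0.60. At 90 min both male arrays were low, at -2.64 and -2.41, and both female ones above 0, at 0.78 and 0.44. The male value of -2.53 ± 0.68 did not pass, adjusted p = 0.053, and the sex difference of -3.14 ± 0.96, with a 95% interval of -5.22 to -1.05, had adjusted p = 0.28. After 2GH the ratios were -1.53 and -1.61 in males and -0.85 and -1.09 in females, close pairs below 0 that did not pass, adjusted p = 0.14 and 0.46. With each pairing fitted alone in limma both were called, adjusted p = 0.03 and 0.0081. Both 2GH arrays of a sex had pools of the same sizes, 4 over 5 mice in males and 3 over 2 in females. Whether they carried the same pools is not stated, so their closeness may not reflect agreement between pools.
Within the GH30 groups, readings of Igfbp1 split by the labelled size of the pool, on different arrays and against different partners. In male GH30 the pools of 4 mice read 15.36 and 15.66 on the 2 arrays that carried them, and the pools of 3 mice read 17.37 and 17.88. The pools of 4 minus those of 3 came to -2.12 log2 units, against a gap of at most 0.52 within a pool size. In female GH30 the order was the opposite: 17.16 and 17.43 in the pools of 4, and 16.04 and 16.16 in the pools of 3. Female Hypox pools of 2 mice read 15.22 to 15.38 on 4 arrays and 17.04 and 17.24 on the 2GH arrays, and pools of 3 read 16.28 to 16.64, between them. The male GH30 arrays that disagreed also differed in muscle genes (medians of 3.58 and 0), Kupffer cell genes (0.81 and -0.23) and mesothelial genes (-0.21 and -1.17). Over the 11 pairings, array differences in Igfbp1 had r = -0.76, -0.81 and -0.75 with these lists, and -0.24, -0.27 and -0.47 without the 2 farthest pairings. Their part in the Igfbp1 readings was not tested. For Igf1 the same pools of male GH30 differed by 0.02 and of female GH30 by 0.06. The lowest Igfbp1 readings of all were those of male GH90, 13.39 and 13.82, below the 42 others. Leaving out male GH30 replicate 1, the male 90 min response minus that at 30 min was -4.45 and was called, adjusted p = 0.035. With all arrays it was -2.72 ± 0.96, adjusted p = 0.16. The 2GH minus 30 min difference behaved likewise: without that array it was called for Igfbp1 at -3.49 (adjusted p = 0.031), Igfbp5 at 2.76 (adjusted p = 0.038) and Igfbp6 at 1.62 (adjusted p = 0.037).

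**Figure D4:**
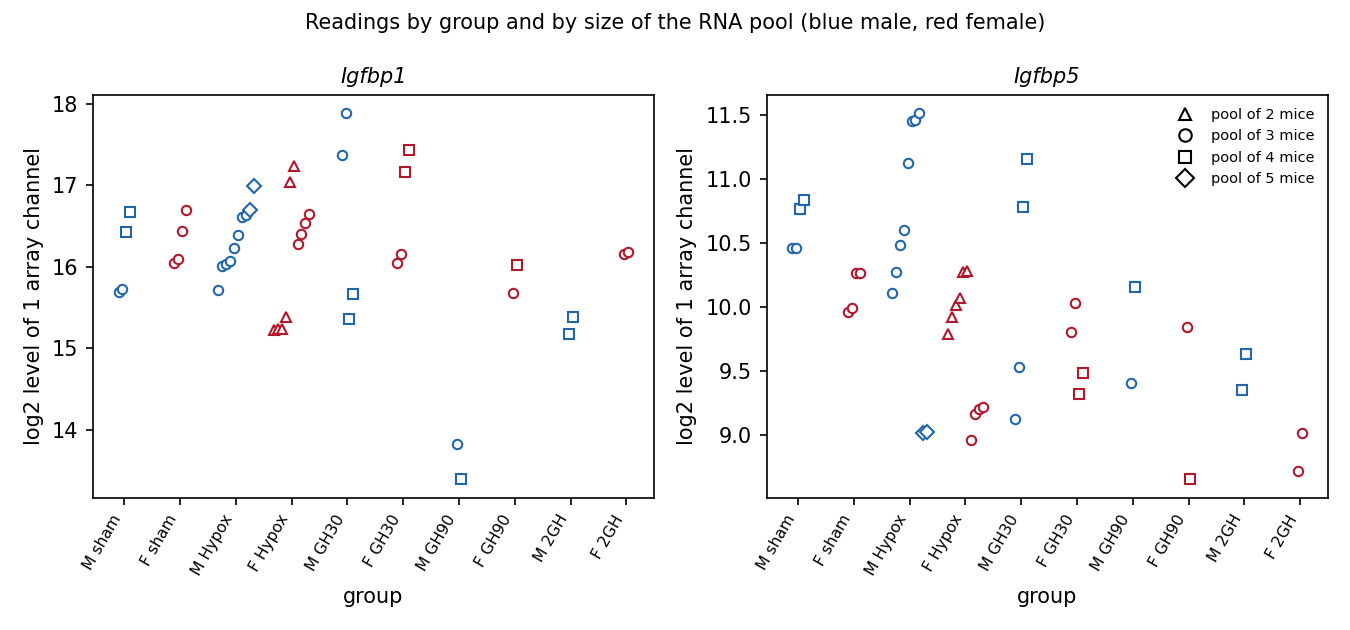
Log2 channel readings of Igfbp1 and Igfbp5 in the 10 groups, with a point per reading marked by the number of mice in the pool. Male GH30 readings of Igfbp1 split into 15.36 and 15.66 for pools of 4 and 17.37 and 17.88 for pools of 3, and those of Igfbp5 split the opposite way.

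Igfbp5 and Igfbp6, binding proteins of stromal and mesothelial cells, passed in none of the 11 pairings with all 22 arrays fitted, and moved together. Igfbp5 was called in male over female Hypox in the loop of group levels (1.42, adjusted p = 0.029) and in female 2GH with that pairing fitted alone (adjusted p = 0.0072). Igfbp5 (probe A_52_P281702) read -0.30 and -1.92 in male GH30, 2.16 and 0.31 in male over female Hypox, and 1.46 and -0.69 in male over female GH30. Igfbp6 read 0.12 and -1, 1.13 and -0.20, and 0.86 and -0.43 in the same order. In each of these the same array was the higher for both genes. Residual SDs of 0.82 and 0.50 put them at the 99th and 96.9th percentiles. After 2GH female Igfbp5 was read at -1.35 and -1.01, both below 0, and -1.18 ± 0.52 did not pass, adjusted p = 0.20. The other Igfbp5 probe was above background in only 11 of 44 channels and its ratios stayed between -0.24 and 0.23.
Readings split by pool here too. Male GH30 pools of 4 read 10.78 and 11.15 for Igfbp5 and 8.26 and 8.47 for Igfbp6, and pools of 3 read 9.12 and 9.53 and 6.82 and 6.98. Male Hypox pools of 5 mice, used on the 2GH arrays, had Igfbp5 at 9.01 and 9.02, below all 8 readings of the pools of 3, which were 10.11 to 11.51.
Mesothelial genes of the liver surface (Msln, Upk3b, Gpm6a and Wt1, above background in all 44 channels) moved with both. Their median ratio was -0.21 and -1.17 in male GH30, 1.18 and 0.15 in male over female Hypox, and 0.53 and -0.53 in male over female GH30. Over the 22 arrays the median of these genes had r = 0.90 with Igfbp5 (Spearman 0.89, and r = 0.83 without the 2 farthest arrays) and r = 0.87 with Igfbp6 (0.85 and 0.75). Between the arrays of a pairing the differences had r = 0.97 with Igfbp5 and 0.95 with Igfbp6. Other lists moved with the same differences: stellate and fibroblast genes at r = 0.81 and 0.79, lymphocyte genes at 0.74 and 0.58, muscle genes at 0.66 and 0.73, and Kupffer cell genes at 0.57 and 0.68. Without the 2 farthest pairings mesothelial genes had r = 0.94 and 0.91, and lymphocyte genes 0.97 and 0.54. Stellate and fibroblast genes then had 0.82 and 0.73, muscle genes 0.31 and 0.73, and Kupffer cell genes 0.1 and 0.63. Summed mesothelial levels ranged from 759 to 2267 units in male Hypox, 618 to 1417 in female Hypox, 759 to 1752 in male GH30, 1023 to 1325 in male sham and 813 to 858 in female sham. None of the 4 genes was called in any of the 11 pairings, and the part of any of these lists in the Igfbp5 and Igfbp6 values was not tested.

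**Figure D5:**
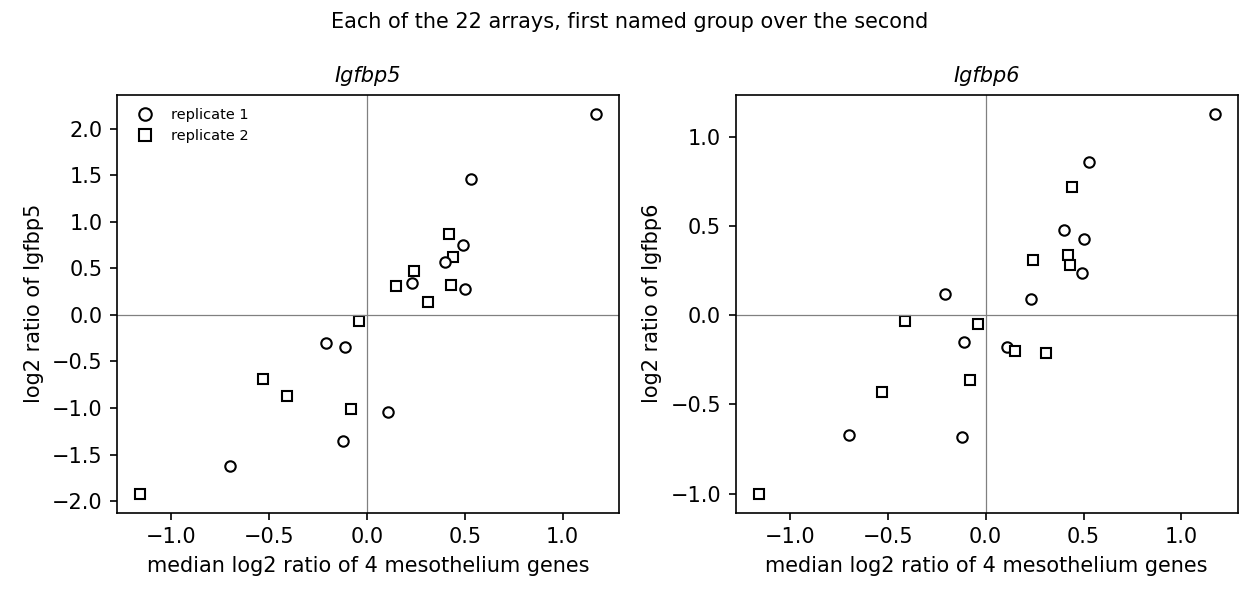
Log2 ratios of Igfbp5 and Igfbp6 against the median log2 ratio of 4 mesothelial genes, with a point for each of the 22 arrays. Both genes rise along the mesothelial median, with r = 0.90 for Igfbp5 and 0.87 for Igfbp6.

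Other genes of the system were taken from lists by function. Of 18 receptors, proteases, adaptors and partners of IGFs, 14 could be tested. After hypophysectomy 4 were called higher and 2 lower in males, and 4 higher and none lower in females, where 18.8% and 18.6% of all genes were called higher and lower in males and 14.6% and 16.5% in females. The male total of 6 of 14 is near the 37.3% of all genes. Irs1, the adaptor below the IGF1 and insulin receptors, rose at 0.78 and 0.56 in males, fitted 0.67 with adjusted p = 0.0011, and at 1.22 and 0.94 in females, fitted 1.08 with adjusted p = 5.4e-05. Igf2bp3, a fetal RNA-binding protein gene, rose at 1.61 and 0.84 in males, fitted 1.23, adjusted p = 0.0047, and at 2.91 and 3.47 in females, fitted 3.19, adjusted p = 7.8e-06. Grb10, an adaptor that restrains the receptors, fell in males at -1.46 and -0.79, fitted -1.12 with adjusted p = 0.00029, and rose in male 2GH at 1.54 and 0.88, fitted 1.21 with adjusted p = 0.00044. Igf1r, the receptor of the ligand, was called only in female 2GH, at -0.36 and -0.65 and adjusted p = 0.018. Igf2, the fetal ligand, was lower there too, at -1.44 and -1.02 with adjusted p = 0.0054. No listed gene was called at 30 or 90 min, when 0.0191% to 4.98% of all genes were.
Of the 14 genes from the GH receptor to STAT5, all tested, 2 were called higher and 4 lower after hypophysectomy in males and none higher and 3 lower in females. These counts stand against the same shares of all genes. Socs2 fell, at -3.62 and -1.49 in males and -4.44 and -3.19 in females. Ghr, the receptor itself, was called in no pairing. After GH 1, 3 and 3 of the 14 were called higher in males at 30 min, 90 min and after 2GH, with 1 lower after 2GH, and 1, 2 and 2 higher in females. The shares of all genes called either way at these times were 2.5%, 4.98% and 19.3% in males and 0.0191%, 3.16% and 8.43% in females. Of 16 tested genes of insulin signalling, fasting and stress, 3 were called higher and 4 lower in male Hypox and 2 higher and 6 lower in female Hypox, against the same shares. Foxo1, which drives Igfbp1 in fasting, fell by 0.65 in males and 0.89 in females. None of the 16 was called at 30 min in either sex. At 90 min 1 was called lower in each sex, and after 2GH 3 were called higher and 2 lower in males and none in females. The counts after GH stand against the shares of all genes given above for each time.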

How the data were processed

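Two-colour arrays were compared in 11 pairings of liver RNA pools, 2 arrays each with the dyes exchanged, per the labels. The intensity columns deposited by the authors are Agilent Feature Extraction output (versions 9.5.1.1 and 9.5.3.1 per the file headers); the deposited log10 ratio is that scanner's own. The deposited value table holds log2 ratios that equal the scanner ratio within 0.005, with 16 of 22 columns matching the other replicate's array. No genome build is given in the sources used here, and the number of arrays limits the precision.

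Mean signals were corrected with normexp (offset 50, which pulls ratios of dim probes towards 0) and loess in limma 3.58.1 (R 4.3.3), control and outlier spots left out, and spots of a probe averaged. The brightest probe stands for a gene. Genes that exceeded background, in either dye, on each array of some pairing were fitted in 1 model of 22 arrays with 11 pairings and a dye term (10 residual degrees of freedom), with Benjamini-Hochberg adjustment over 26207 genes. All members are described, whatever their values; genes most like a member are the 5 with the highest r. Promoters came from a RefSeq table. P-values measure the spread between arrays, and errors leave out pools used on several arrays. The members and lists were chosen with earlier results of these data known. Alternatives included the scanner ratio, median centring, no dye term, group levels in a loop, each pairing alone, blocks by replicate number and slide, other probes and leaving out each array. The fit was tested on simulated data.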

Additional observations from a re-analysis of the deposited data

Results flagged for a closer look

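Of 54 sets of 4 to 10 channel readings of a member in a group, 2 held a reading far from the others, and chance alone flags a few such sets. The lowest Igf1 reading in male Hypox was 14.02, with the next at 14.59, on replicate 1 of the male Hypox over sham arrays. The lowest Igf1 reading in female Hypox was 13.47, with the next at 14.15, on replicate 1 of the female Hypox over sham arrays. Those arrays also gave the lower Igf1 ratio of each pair, -2.67 and -3.45.

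Responses that differed between groups by the test of the difference were these. Igfals fell less in males than in females after hypophysectomy, by 0.59, and Igfbp4 by 0.41. In males the Igfals response at 90 min exceeded that at 30 min by 0.87, and that after 2GH exceeded the 90 min response by 0.86, against 1.41 in females. Between 2GH and 30 min the difference was 1.74 in males and 1.63 in females for Igfals, and 1.34 and 1.17 for Igf1. Comparisons within a sex share Hypox as the control group, but not always the size of its pools.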

How the results depend on the processing

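Of 99 member values in the 11 pairings none changed sign past the test under any alternative, and slide as a block and no filter on dim probes left the calls of all 99 as they were. The counts of members called that moved most are given here with the changed settings, and the cause was not tested. With the scanner ratio, female Hypox had 5 called and sham males over females had 0 called and the sex differences 0 in place of 2. With median centring in place of loess, the counts were 0 for the sham sexes, 3 for male Hypox (5), 1 for male 2GH (2), 3 for female Hypox (6), 1 for female GH90 (2), 0 for the sex differences and 2 for the time differences (7). Without the dye term male GH90 had 2, with Igfbp1 added. In the loop of group levels the counts were 2 for the sham sexes, 2 for male GH90, 4 for male over female Hypox (Igf1, Igfals, Igfbp2 and Igfbp5), 1 for male over female GH30 and 4 for the sex differences. With each pairing fitted alone they were 0 for the sham sexes, 0 for female GH90 and 5 for female 2GH, with Igfbp1, Igfbp2 and Igfbp5 added. Male 2GH gained Igfbp1, and male GH90 kept a count of 1 with Igfals lost (0.81, adjusted p = 0.051) and Igfbp1 called. Counts not given here changed by at most 1 gene under these settings. Leaving out 1 array at a time gave 0 to 1 for the sham sexes, 0 and 0 for female GH90, 0 to 1 for male over female GH30, 0 to 3 for the sex differences and 5 to 10 for the time differences; a lone array is then assumed to vary like the rest.

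Replicate numbers were not taken as pairs, since the labels do not tie a number to shared pools. In male sham, GH30 and GH90, however, replicate 1 had pools of 4 mice and replicate 2 pools of 3. Female Hypox pools were of 3 and then 2 mice against female sham and male Hypox, and of equal size within the other pairings. Over 55 pairs of pairings, deviations of same-numbered arrays had r of -0.359 to 0.871 with a median of -0.001, 20 over 0.1 and 21 below -0.1. With a replicate block, male GH90 had 2 called, with Igfbp1 at -2.53 and adjusted p = 0.04, and male over female Hypox and male over female GH30 had 1 each, Igfbp2, and female 2GH had 3, with Igfbp2 added (adjusted p = 0.039). Scan day could not be fitted and was not run, since both arrays of every pairing were scanned on 1 day. The depth of evidence was least for Igfbp1, Igfbp5 and Igfbp6, whose residual SDs were 1.07, 0.82 and 0.50 with 2 arrays a pairing.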
